A study of Mus musculus with 6 samples.

Results

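The cytosolic translation initiation factors load mRNA and the initiator tRNA onto the ribosome. Their genes were compared between germinal vesicle (GV) oocytes of wild-type and mitofusin knockout mice. The members were the protein-coding genes whose symbols begin with Eif1, Eif2b, Eif2s, Eif3, Eif4, Eif5 or Eif6, with Eif2s1 left out, and 47 of the 25353 genes in the deposited table met this rule. RNA was sequenced in 6 libraries of 5 pooled oocytes each, from C57BL/6J mice given as 8 weeks of age (P1 in another label). Of these, 3 were wild type (WT) and 3 carried the label knockout (KO). The labels name Mfn2 in the title and design of the series and Mfn1 in the genotype field, and they do not say in which cells or by what driver the gene was deleted. Nothing in them ties a pool to its own mouse, so a p-value here reflects only how much such pools vary, which may be technical.

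GV oocytes are fully grown germ cells arrested in prophase of meiosis. They transcribe little and live on stored maternal mRNA, so the control of initiation sets much of what they make. In initiation, eIF2 with GTP brings the initiator tRNA to the small ribosomal subunit, helped by eIF1, eIF1A, eIF3 and eIF5. The cap-binding complex eIF4F, made of the cap-binding protein eIF4E, the scaffold eIF4G and the helicase eIF4A, recruits the mRNA. The 4E-binding proteins block eIF4E, eIF2B recharges eIF2 with GTP, and eIF5B joins the large subunit. Most oocyte mRNA that is not translated is held by proteins that bind its cap or its tail.

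Mfn2 had normalized read counts of 25.5, 38.1 and 32.3 in WT and 5.25, 5.28 and 4.50 in the libraries labelled KO, whereas Mfn1 had 363, 298.5 and 360 in WT and 398, 382 and 379 in KO. The Mfn2 change of -2.44 (log2, SE 0.38) passed at an adjusted p of 0.00487 in limma, and that of Mfn1 did not (0.19, SE 0.13, adjusted p = 0.482 in limma). A normalized read count is a gene's reads over the size factor of its library. Libraries held between 6450191 and 7992598 reads in genes. KO replicate 1 stood apart from the other KO libraries, with a chi-square per gene of 11.2 and 16.1 against them, where those differed by 5.09 and the WT libraries by 5.67 to 6.29. Markers of oocytes (13 of 13 in the table) summed to between 25410 and 30850 CPM (reads scaled to a common library total) in WT and between 19180 and 27390 in KO, lowest in KO replicate 1. Granulosa markers (10 of 10) summed to 197 CPM in WT replicate 1 and to between 75.8 and 104 in the other libraries. Cyp11a1 had 545 reads in WT replicate 1, 15 and 100 in the other WT libraries and between 3 and 5 in KO. Cyp19a1 (288 to 482 reads) and Nr5a2 (132 to 190) were present in all libraries. Of the 10 markers, only Amh and the lineage factor Foxl2 had 0 reads in any library, Foxl2 in 4. Markers of stroma and immune cells (5 of 6 in the table for each) summed to at most 10.4 CPM, highest in WT replicate 1. Col1a1, Col1a2, Col3a1, Adgre1, Lyz2, Cd74 and C1qa had 0 reads in each KO library. Of these, Col1a2 and Col3a1 had reads only in WT replicate 1, and Lyz2 and Cd74 had 0 in WT replicate 2. Cd68 had 17, 23 and 23 reads in WT and 10, 8 and 16 in KO. Pdgfra had 3, 2 and 2 in WT and 0, 5 and 5 in KO. The theca markers found (2 of 4) and the surface epithelium markers (5 of 5) stayed at or under 2.48 CPM. Of all these markers, Nlrp5, Cyp11a1, Lhcgr and Dcn passed the test as lower in KO. Endothelial markers (4 of 5) summed to between 24.3 and 37.4 CPM, mostly from Pecam1, and no erythroid marker (of 4) was analysed here. The part of these cells in the results below was not tested, and in pooled samples fewer cells of a type and less RNA per cell cannot be told apart.

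Of the 46 members tested, those with a normalized read count of at least 1 in 3 libraries, 1 rose and 3 fell in KO (limma, Benjamini-Hochberg adjusted p under 0.05 over all 18762 genes tested). The eIF4G scaffold gene Eif4g1 fell by 0.91 on the log2 scale, the eIF3 subunit genes Eif3c and Eif3k fell by 0.49 and 0.41, and the eIF3 subunit gene Eif3j1 rose by 0.53. These 4 calls are 8.70% of the members, where 3.28% of all genes tested were called, 1.87% as rises and 1.41% as falls. Most members are abundant, and among genes with a mean normalized read count of at least 100 the share called was 6.22% over all genes and 9.76% over the 41 members of that level. The median log2 fold change was -0.02 over the members and -0.01 over all genes, and 25 of the 46 lay below 0. The values of KO and WT were fully separate in 16 members, 6 higher and 10 lower in KO. That is 34.8% of those tested, against 23.2% of all genes. With a mean of at least 100 it was 36.6% of members (15 of 41) and 31.5% of genes. An unadjusted limma p under 0.05 was found in 12 members (26.1%), against 18.0% of all genes. With a mean of at least 100 it was found in 24.4% of members (10 of 41) and 26.9% of genes. On the whole reads recovered from the table, edgeR called 5 members (6.03% of the genes it tested) and DESeq2 7 (6.84%). In limma, a filter of 5 CPM gave 6 (8.14% of genes), removal of the GC content and length trend gave 4 (3.48%) and leaving out KO replicate 1 gave 5 (4.94%). As a whole the 47 genes took between 0.946% and 0.960% of the reads in each of the 6 libraries, and the groups overlapped in this share. On the scale of normalized read counts their sum was 68204, 68039 and 70222 in WT and 65958, 66918 and 64800 in KO, so each KO library lay below each WT library. Whether the groups overlap in this sum thus turns on the scaling.

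**Figure D1:**
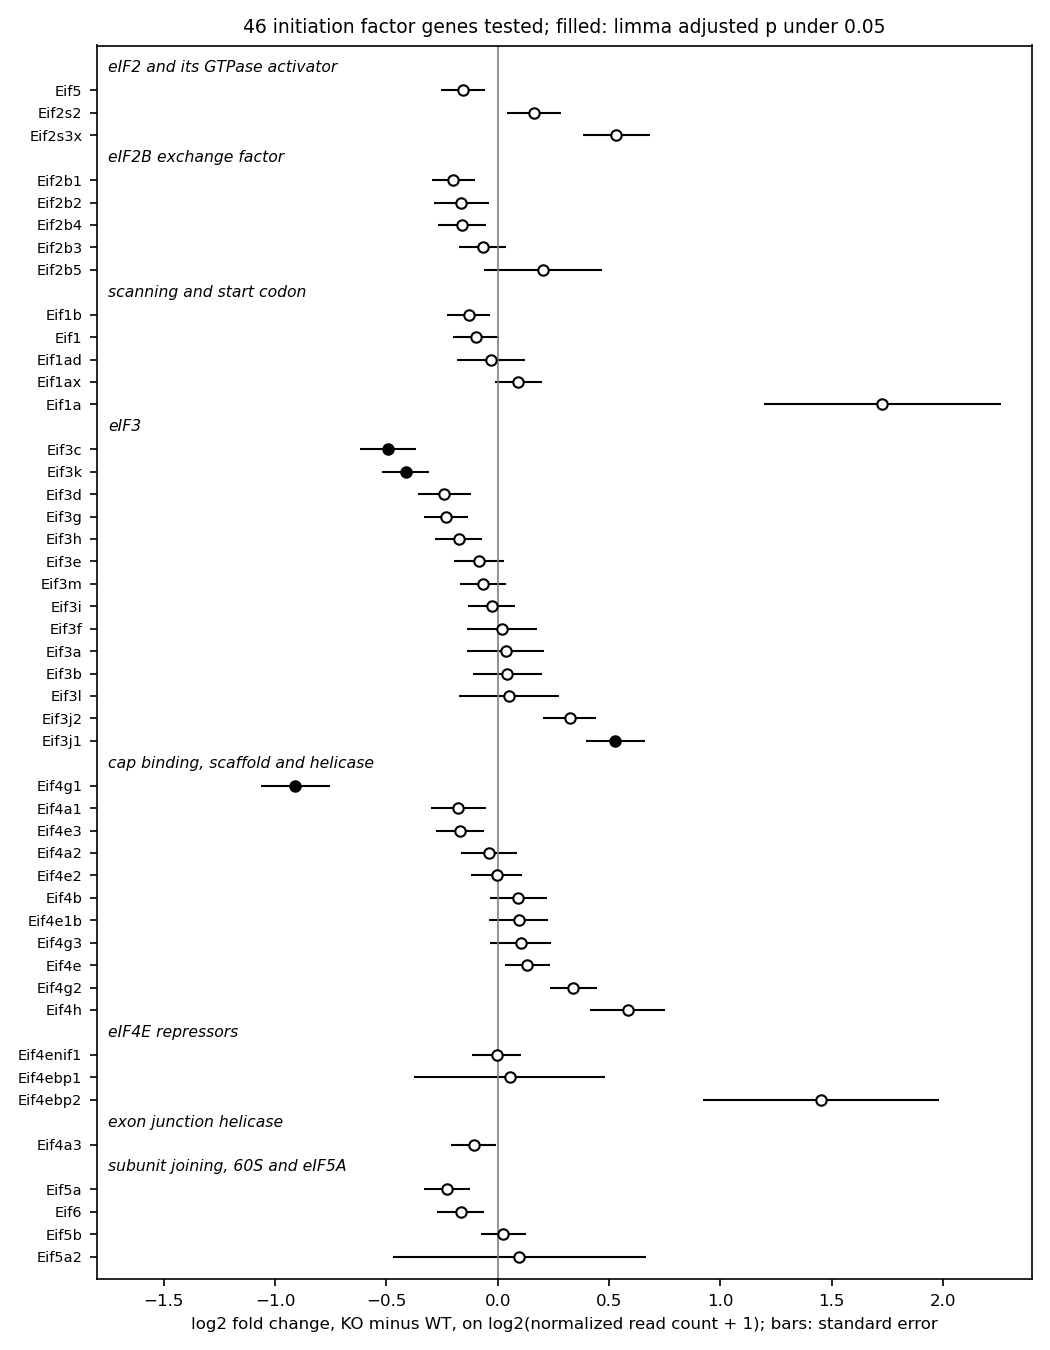
Log2 fold change of KO minus WT (horizontal axis, on log2 of the normalized read count plus 1) for the 46 members tested, grouped by role; bars are standard errors and filled points passed the limma test at an adjusted p of 0.05. Eif4g1 lies lowest at -0.91, and the wide bars of Eif1a and Eif4ebp2, at 1.73 and 1.45, belong to genes with few reads.

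The sequences before the start sites of the 4 genes that passed are shown because these were the members called in the limma test. RefSeq promoter windows on GRCm38.p6 were found for 35 of the 47 members. The stretches below, 5′ to 3′, lie within the 250 bases before the RefSeq start, without bases that GENCODE M21 counts as exon of the gene. Capitals mark matches to 6 motifs, searched on both strands: the E-box CACGTG, the CCAAT box CCAAT, the ETS site CCGGAAG, the NRF1 site (GCGCA followed directly by TGCGC), the ATF4 site TGATGNAA and the TATA box TATAAA. The RefSeq start of Eif4g1 used here lies inside the gene as the deposited table gives it.
Eif4g1, chr16:20672477-20672722, plus strand: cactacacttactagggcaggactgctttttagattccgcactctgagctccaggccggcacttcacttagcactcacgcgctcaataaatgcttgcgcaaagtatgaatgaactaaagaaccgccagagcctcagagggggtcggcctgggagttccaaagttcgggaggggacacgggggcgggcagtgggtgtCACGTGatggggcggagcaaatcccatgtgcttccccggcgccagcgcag
Eif3c, chr7:126566412-126566616, minus strand: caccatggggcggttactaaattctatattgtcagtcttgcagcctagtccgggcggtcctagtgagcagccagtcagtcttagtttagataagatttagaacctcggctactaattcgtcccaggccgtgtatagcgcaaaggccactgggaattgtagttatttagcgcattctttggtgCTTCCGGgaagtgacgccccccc
Eif3k, chr7:28981889-28982138, minus strand: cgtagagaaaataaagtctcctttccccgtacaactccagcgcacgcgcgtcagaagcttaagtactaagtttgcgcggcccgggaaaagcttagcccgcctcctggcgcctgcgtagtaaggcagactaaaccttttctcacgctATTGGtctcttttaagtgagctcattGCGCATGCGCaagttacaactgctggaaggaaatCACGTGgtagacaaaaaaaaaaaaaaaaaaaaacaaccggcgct
Eif3j1, chr2:122028330-122028545, plus strand: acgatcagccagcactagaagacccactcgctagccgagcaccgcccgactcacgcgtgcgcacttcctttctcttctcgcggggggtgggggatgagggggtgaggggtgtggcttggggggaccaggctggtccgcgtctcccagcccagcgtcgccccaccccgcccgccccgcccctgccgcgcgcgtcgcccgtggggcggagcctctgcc

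Eif4g1 and Eif3k both hold an E-box, 54 and 44 bases before the start, and Eif3c, which also fell, holds none. Eif3k also holds an NRF1 site 78 bases and a CCAAT box 104 bases before the start, and Eif3c an ETS site 68 bases before it. The GC-rich stretch of Eif3j1 holds no match to these 6 motifs. In the 250 bases before the start, an E-box was found in 9 of the 35 members with a window (25.7%), against 6.86% of 27025 genes with a window and 9.48% of the 10926 protein-coding genes tested here. Besides Eif4g1 and Eif3k these were Eif4h, Eif4e, Eif5a2 and Eif3f (log2 fold changes 0.58, 0.13, 0.10 and 0.02) and Eif1b, Eif4a1 and Eif5a (-0.13, -0.18 and -0.23). A link between motif and direction was not tested. The ETS site was found in 12 members (34.3%), against 7.83% and 14.5%. The CCAAT box was found in 34.3% of members, against 37.5% and 40.4%. The NRF1 site (2.86%, against 0.877% and 1.74%), the ATF4 site (2.86%, against 3.91% and 2.64%) and the TATA box (5.71%, against 14.3% and 9.09%) were rare in members. Median GC content of the windows was 61.2% in members, 52% over all genes and 58.8% over the tested coding genes, and its part in these shares was not tested. A match describes letters and is no evidence of binding.

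The largest fall was that of Eif4g1 (chromosome 16, 20668313 to 20692884, plus strand, GRCm38), which encodes the main scaffold that bridges eIF4E, eIF4A and eIF3. It had normalized read counts of 271, 233 and 235 in WT and 130, 115 and 147 in KO. Every KO library lay well below every WT library. The WT mean was 246 ± 21.1 and the KO mean 131 ± 16.2 (SD over 3 libraries), a log2 fold change of -0.91 (SE 0.15, adjusted p = 0.0063 in limma). None of its 75-base windows matched another annotated gene. With any 1 of the 6 libraries removed and the genes filtered again, it still passed, at adjusted p between 0.00358 and 0.0407. When the gene set of all 6 libraries was kept instead, it passed in 5 of 6 and not without WT replicate 1 (adjusted p = 0.0502 in limma).

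For the other eIF4G genes no fall was detected. Eif4g3, which encodes a second full-length scaffold, had 274, 241 and 246 in WT and 254, 258 and 307 in KO, and the groups overlapped (log2 fold change 0.10, SE 0.14, adjusted p = 0.764 in limma). Eif4g2, whose product DAP5 lacks the eIF4E-binding part and serves initiation without eIF4E, had 1092, 1068 and 1153 in WT and 1505, 1277 and 1415 in KO. All KO values of Eif4g2 lay above WT, but the difference (0.34 in log2, SE 0.11) missed the threshold in limma (adjusted p = 0.091) and met it in DESeq2 (adjusted p = 0.0389). It missed the threshold in edgeR (0.0669). With the GC content and length trend removed it was 0.23 (adjusted p = 0.229 in limma). Within each library, Eif4g1 reads were 0.988, 0.969 and 0.955 times those of Eif4g3 in WT and 0.512, 0.447 and 0.481 times in KO. The same ratio to Eif4g2 was 0.248, 0.219 and 0.203 in WT and 0.0865, 0.0902 and 0.104 in KO. Both ratios separate the groups without overlap. They are not corrected for length, so only their change between libraries can be read.

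**Figure D2:**
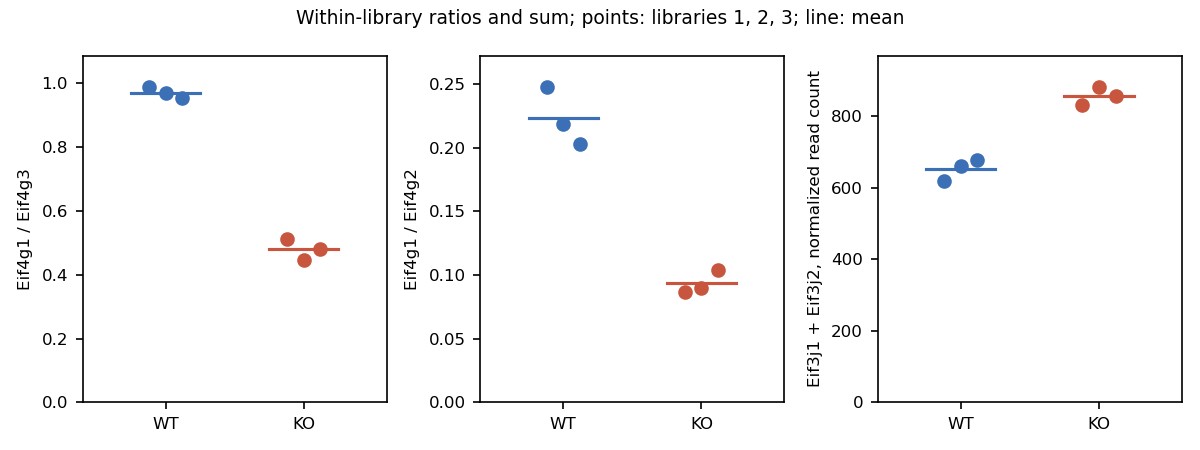
Reads of Eif4g1 relative to Eif4g3 (left) and Eif4g2 (middle) and the sum of Eif3j1 and Eif3j2 normalized read counts (right) in each library; points are replicates 1 to 3 and lines are means. The Eif4g1 to Eif4g3 ratio is between 0.955 and 0.988 in WT and between 0.447 and 0.512 in KO.

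Of the other 10 genes of the cap complex, limma and edgeR called 0 and DESeq2 called 2 (Eif4g2 and Eif4h). The same number had an unadjusted limma p under 0.05, as did 18.0% of all genes tested. Eif4e, the cap-binding protein and the one with most reads, had 4140, 4252 and 4822 in WT and 4955, 4734 and 4779 in KO (log2 fold change 0.13, adjusted p = 0.531 in limma). Its oocyte-enriched relative Eif4e1b had 314, 355 and 325 in WT and 402, 321 and 342 in KO. Eif4e2, a cap-binding protein that represses translation, and Eif4e3 had adjusted p of 0.991 and 0.443 in limma. The groups overlapped in each of these 4 genes. Eif4h, a cofactor of the helicase, had 221, 176 and 158 in WT and 307, 222 and 305 in KO. Its KO values lay above WT, with KO replicate 2 only just above WT replicate 1, and a difference of 0.58 (log2, SE 0.17) gave an adjusted p of 0.068 in limma. It passed without KO replicate 2 (0.0464), with no filter on low values (0.0476), with the 5 CPM filter (0.0497), after removal of the GC content and length trend (0.0439) and in DESeq2 (0.0384). It did not pass in edgeR (0.0558), with TMM scaling (0.066) or with the replicate number as a block (0.0737). With any other library left out it also missed (0.0634 to 0.258). The helicase genes Eif4a1 and Eif4a2 and the cofactor gene Eif4b overlapped between groups, at -0.18, -0.04 and 0.09. Of the Eif4a1 windows, 26.6% also match the pseudogene Eif4a-ps4. That row was larger than Eif4a1 itself (2114 ± 90.6 in WT and 1635 ± 191 in KO, against 775 ± 87.4 and 685 ± 79.2 for Eif4a1; SD, n = 3 each), so the split of reads between them is uncertain. The sum of both was 2899, 2936 and 2832 in WT and 2452, 2060 and 2447 in KO, lower in each KO library. Eif4a3, the helicase of the exon junction complex, is grouped here by symbol only, shares 32.8% of its windows with other genes and had -0.11 (adjusted p = 0.641 in limma).

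Of the proteins that hold eIF4E in check, Eif4enif1 was the most abundant. It encodes 4E-T, which brings eIF4E into stored ribonucleoprotein, and it had 1437, 1187 and 1340 in WT and 1290, 1241 and 1415 in KO (log2 fold change near 0, adjusted p = 0.992 in limma). The 4E-binding protein genes were low. Eif4ebp1 had 77.6, 22.3 and 20.3 in WT and 31.5, 24.3 and 52.2 in KO, highest in WT replicate 1, the library with the highest sum of granulosa markers, whose part in this value was not tested. Its log2 fold change was 0.05 with all libraries and ranged from -0.28 to 0.66 when 1 was left out. Eif4ebp2 had 15, 20 and 3 reads in WT and 20, 25 and 48 in KO. After scaling the groups did not overlap, and the gene did not pass (1.45, SE 0.53, adjusted p = 0.15 in limma). Without WT replicate 3 its log2 fold change was 0.68. Eif4ebp3 missed the filter, with 0, 1 and 0 reads in WT and 9, 5 and 1 in KO, and 67.3% of its exon bases also belong to the overlapping gene model AC115631.1. It was not tested.

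The eIF3 complex, the large platform on the small ribosomal subunit, held 14 members, of which 1 rose and 2 fell. Limma called 3.28% of all genes tested and 6.22% of those with a mean of at least 100. Eif3c (chromosome 7, 126546455 to 126566411, minus strand), a subunit of the core, had 834, 806 and 746 in WT and 475, 595 and 638 in KO. No KO library reached a WT value, and KO replicate 1 was lowest. Of its windows, 9.02% also match Gm11224. It fell by 0.49 (SE 0.13, adjusted p = 0.0442 in limma). The call ended without WT replicates 1, 2 or 3 (adjusted p = 0.144, 0.14 and 0.111) or KO replicates 1 or 2 (0.0593 and 0.0832), and with TMM scaling (0.0502).

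Eif3k (chromosome 7, 28971372 to 28981864, minus strand), a peripheral subunit, had 2354, 2162 and 2055 in WT and 1492, 1786 and 1662 in KO. Again all KO values lay below WT. It fell by 0.41 (SE 0.11, adjusted p = 0.0449 in limma), and the call ended without WT replicates 1, 2 or 3 (0.176, 0.13 and 0.104) or KO replicates 2 or 3 (0.0642 and 0.079). Eif3g, an RNA-binding subunit and the most abundant of the complex per length, was lower in each KO library (1792, 2038 and 1860, against 2203, 2209 and 2256 in WT), as was Eif3h (822, 891 and 848, against 944, 915 and 1036). Neither passed, at limma adjusted p of 0.229 and 0.42, and 28.6% of the Eif3h windows also match AC122253.2.

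Eif3j1 and Eif3j2 encode the loosely bound eIF3j subunit and were higher in every KO library. Eif3j1 (chromosome 2, 122028546 to 122056598, plus strand) had 225, 219 and 210 in WT and 292, 334 and 319 in KO, and it rose by 0.53 (SE 0.13, adjusted p = 0.0391 in limma). Eif3j2 had 394, 442 and 467 in WT and 540, 548 and 538 in KO, with no overlap, but did not pass (0.32, SE 0.12, adjusted p = 0.149 in limma). The copies share sequence over 90.3% of the Eif3j2 windows and 38.3% of the Eif3j1 windows, so the split of reads between them is uncertain. Their sum avoids that split and was 619, 660 and 677 in WT and 832, 882 and 857 in KO, again without overlap. The Eif3j1 call ended without WT replicates 1, 2 or 3 (0.0957, 0.115 and 0.142), without KO replicates 2 or 3 (0.131 and 0.0863) and after the GC content and length trend was taken out (0.0935). Eif3j1 also shares 19.0% of its exon bases with Spg11 on the other strand, which the library kit cannot separate, although Spg11 had only 18.0 ± 0.722 in WT and 20.3 ± 9.96 in KO (SD over 3 libraries).

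KO replicate 1 stood apart in eIF3. Of the 14 genes, 8 had their lowest value of all 6 libraries in KO replicate 1 and 2 their highest. Over all 47 members it was the lowest library in 15 and the highest in 12, and over all genes tested in 19.9% and 19.7%. Eif3l showed this most. It had 1252, 1041 and 1414 in WT and 748, 1569 and 1746 in KO, so that KO replicate 1 lay below and the other KO libraries above every WT value. Its log2 fold change was 0.05 (SE 0.22, adjusted p = 0.936 in limma) with all libraries and 0.43 without KO replicate 1, where it passed the limma test (adjusted p = 0.043). It was named after its values were seen. Eif3a, the main scaffold of the complex, had the same order, with 476, 457 and 529 in WT and 350, 576 and 615 in KO, and did not pass with or without that library (adjusted p = 0.943 and 0.17). KO replicate 1 was also the library with the lowest sum of oocyte markers, and the part of that in these values was not tested. Eif3b, Eif3d, Eif3e, Eif3f, Eif3i and Eif3m overlapped between groups, with log2 fold changes from -0.24 to 0.04.

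**Figure D3:**
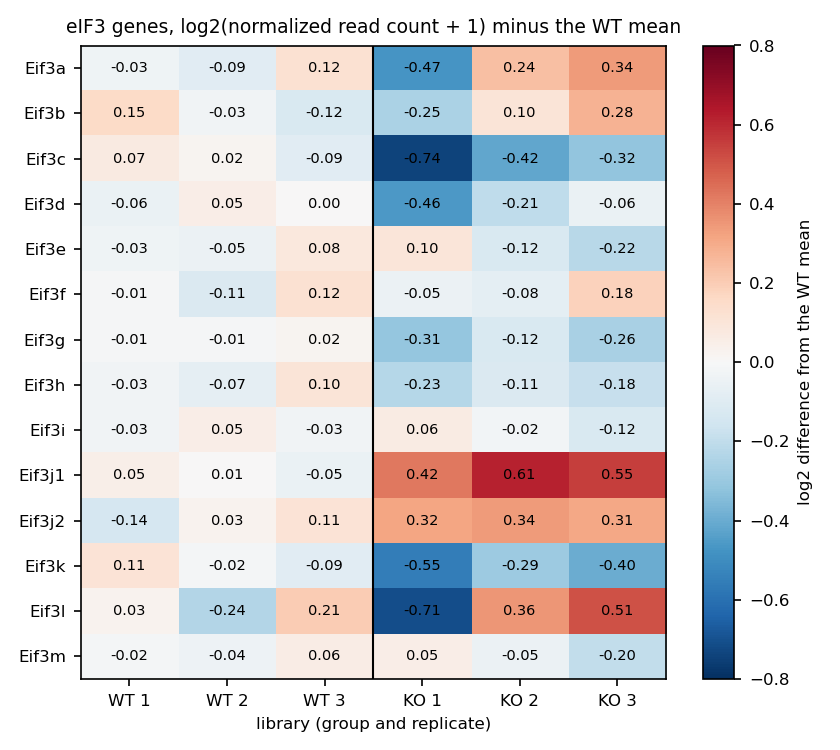
Log2 of the normalized read count plus 1 of the 14 eIF3 genes in each of the 6 libraries, minus the mean of the 3 WT libraries (colour and printed value). Eif3c and Eif3k are below 0 and Eif3j1 and Eif3j2 above 0 in every KO library, while Eif3a, Eif3b and Eif3l are below 0 in KO replicate 1 and above 0 in the other KO libraries.

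For eIF2 the members here were only Eif2s2 and Eif2s3x, since Eif2s1 was left out by the rule. No member of eIF2, of its GTPase activator eIF5 or of its exchange factor eIF2B passed the limma test. An unadjusted limma p under 0.05 was found in 1 of them (Eif2s3x), and in 18.0% of all genes tested. Eif2s3x, which encodes the GTP-binding subunit of eIF2, came closest. It had 121, 121 and 127 in WT and 179, 183 and 173 in KO, without overlap (122.8 ± 3.25 and 178 ± 5.08; SD, n = 3 each). These values rest on 109, 130 and 137 reads in WT and 170, 173 and 192 in KO. SDs this small from 3 libraries may understate the spread. The difference was 0.53 in log2 (SE 0.15, adjusted p = 0.063 in limma), and it passed in edgeR (adjusted p = 0.0486) and with the 5 CPM filter (0.0411). It did not pass in DESeq2 (0.0667). In limma it also missed with the GC content and length trend removed (0.104) and with the replicate number as a block (0.122). With any 1 library left out it missed too (0.0692 to 0.176). Of its windows, 35.7% also match the annotated copy Gm2223, which had 63.2, 54.9 and 72.0 in WT and 26.3, 48.6 and 37.8 in KO. Gm2223 thus went the other way, lower in each KO library (-0.77 in log2, adjusted p = 0.124 in limma). The split of reads between Eif2s3x and Gm2223 is uncertain. The sum of both was 184, 176 and 199 in WT and 205, 231 and 210 in KO, still without overlap. The groups were closer in this sum (means 186 in WT and 216 in KO) than in Eif2s3x alone. Eif2s2, the subunit that binds the activator eIF5, had 3601, 3918 and 3769 in WT and 5171, 3978 and 3625 in KO, highest in KO replicate 1. Its log2 fold change was 0.16 with all libraries and 0.01 without KO replicate 1. Eif5 lay lower in each KO library (3204, 3301 and 3099, against 3811, 3378 and 3518) but did not pass (-0.16, adjusted p = 0.437 in limma).

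Of the 5 eIF2B genes, Eif2b1 had by far the highest level, at 436 ± 3.03 CPM per kilobase of exon in WT and 396 ± 6.85 in KO (SD over 3 libraries). The other eIF2B genes lay between 1.97 and 62.0 in WT on this per-length scale. Eif2b1 is a regulatory subunit, and Eif2b5, the catalytic one, was lowest. In normalized read counts Eif2b1 had 7999, 8039 and 8303 in WT and 6942, 7276 and 6992 in KO, below WT in each library, with a log2 fold change of -0.20 (SE 0.09, adjusted p = 0.285 in limma). Eif2b2, Eif2b3, Eif2b4 and Eif2b5 overlapped between groups, from -0.16 to 0.20. By limma, 0 of the 5 had an unadjusted p under 0.05, and edgeR and DESeq2 also called 0.

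Start codon selection depends on eIF1 and eIF1A. Eif1b and Eif1 were among the most abundant members per length, at 480 ± 19.6 and 329 ± 24.2 CPM per kilobase in WT and 457 ± 15.2 and 320 ± 21.5 in KO (SD over 3 libraries), and 30.0% of the Eif1 windows also match other genes. Eif1b was slightly lower in each KO library (3442, 3723 and 3504, against 3845, 3997 and 3838 normalized read counts) and did not pass (-0.13, adjusted p = 0.518 in limma). The X-linked eIF1A gene Eif1ax had 3910, 4012 and 3965 in WT and 4804, 4212 and 3729 in KO, with overlap. The autosomal eIF1A gene Eif1a was far lower, with 32, 25 and 5 reads in WT and 31, 53 and 104 in KO. Its groups overlapped and its log2 fold change of 1.73 (SE 0.53) had a limma adjusted p of 0.0871. It ranged from 0.93 without WT replicate 3 to 2.28 without WT replicate 1, where it passed (0.0407), as it did without KO replicate 1 (0.0322). It also passed with no filter on low values (0.0472) and in DESeq2 (0.0424). It did not pass in edgeR (0.0706), with the GC content and length trend removed (0.124) or with the replicate number as a block (0.0873).

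At the last steps, Eif5b, the GTPase that joins the subunits, had 2695, 2530 and 2875 in WT and 2669, 2867 and 2704 in KO (log2 fold change 0.03, adjusted p = 0.927 in limma). Eif6, which keeps the large subunit from joining too early, was lower in each KO library (1904, 2253 and 2275, against 2315, 2437 and 2444) and did not pass (-0.17, adjusted p = 0.435 in limma). Eif5a, the hypusinated factor that helps elongation and termination, was also lower in each KO library (2148, 2445 and 2311, against 2858, 2476 and 2748), at -0.23 (SE 0.10, adjusted p = 0.256 in limma). Its relative Eif5a2 had from 2 to 5 reads per library in either group.

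**Figure D4:**
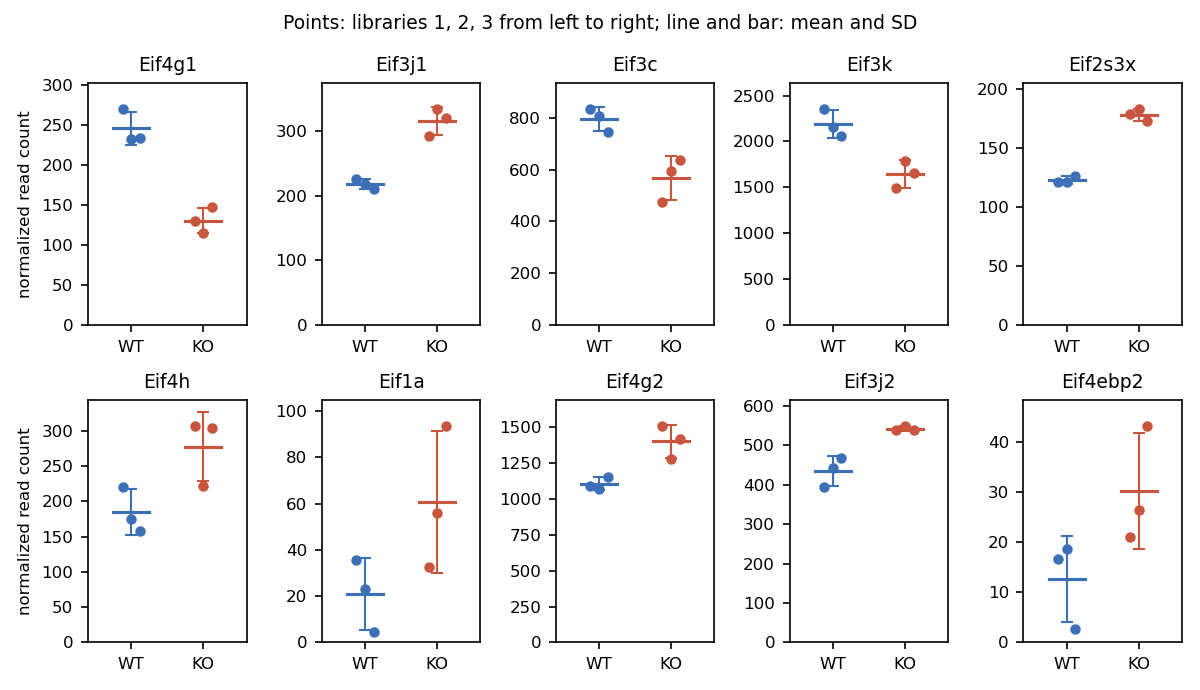
Normalized read counts in each library for the 10 members of smallest limma p; points are replicates 1 to 3, horizontal lines are means and bars are SDs. Eif4g1, Eif3c and Eif3k are lower in every KO library and all others but Eif1a are higher in every KO library.

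Per kilobase of annotated exon the members spanned a wide range of levels. Eif1b, Eif2b1 and Eif1 stood highest, followed by Eif4a3 at 176 ± 7.35 and Eif5a at 157 ± 10.6 CPM per kilobase in WT (SD, n = 3 each). Within eIF3, WT levels ran from 5.19 ± 0.278 for Eif3j1 to 155 ± 1.48 for Eif3g. Eif3j2, which encodes the same loosely bound subunit as Eif3j1, stood at 25.3 ± 1.90. The split of reads between these copies is uncertain, so neither value is the level of that subunit. Within eIF4F, Eif4e stood at 102 ± 6.40, Eif4a1 at 24.8 ± 2.93, and the scaffolds Eif4g1 and Eif4g3 at 4.68 ± 0.44 and 3.18 ± 0.246. The pseudogene Eif4a-ps4 stood at 241 ± 13.5. Since the split of reads between it and Eif4a1 is uncertain, Eif4a1 cannot be ranked against Eif4e here. In KO, Eif4g1 stood at 2.59 ± 0.349 and Eif4g3 at 3.57 ± 0.417, so their order was the reverse of that in WT. Exon lengths are those of all annotated isoforms joined, and which isoforms the oocytes use was not measured, so differences between genes are approximate.

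**Figure D5:**
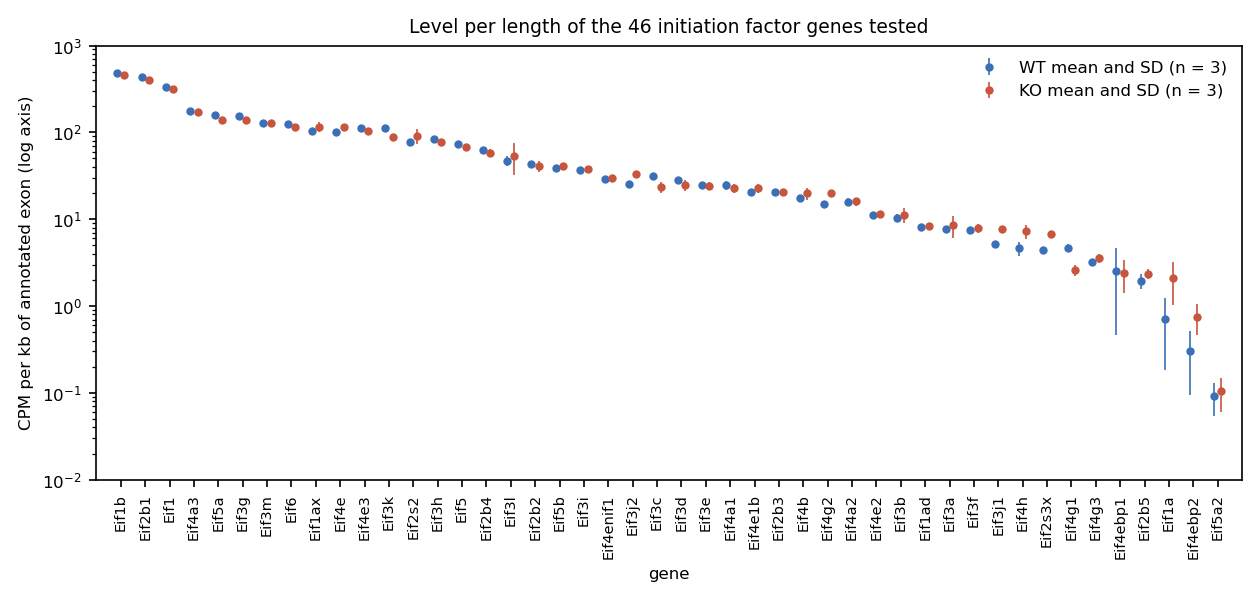
Level per length (CPM per kilobase of annotated exon, log axis) of the 46 members tested, ordered by the mean of both groups; points and bars are means and SDs of 3 WT and 3 KO libraries. Levels run from 480 for Eif1b to 0.0925 for Eif5a2 in WT, and the Eif4g1 points are apart.

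Partners of the initiation factors were read from lists chosen by function. Of 20 partner genes tested (poly(A)-binding proteins, recycling factors, kinases of eIF4E and others), 1 fell and none rose (5% called, against 3.28% of all genes; median log2 fold change 0.08), and edgeR and DESeq2 each called 1. The gene that fell was Paip1, which encodes a protein that links the poly(A)-binding protein to eIF4A and eIF3. Paip1 had 1246, 1194 and 1237 in WT and 653, 819 and 647 in KO, far apart in every library. It fell by 0.80 (SE 0.12, adjusted p = 0.00276 in limma), and it passed in each fit that left out a library (adjusted p between 0.00126 and 0.0399).

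Of 18 genes of oocyte mRNA storage and polyadenylation, limma called 1 rise and 1 fall (11.1%, against 3.28% of all genes and 6.22% of those with a mean of at least 100; median log2 fold change 0.09), edgeR 4 genes and DESeq2 3. Zar1, an RNA-binding protein of stored mRNA, fell by 0.55 (SE 0.10, adjusted p = 0.011 in limma), from 8608, 7951 and 7470 in WT to 5899, 4966 and 5557 in KO. Its call ended without WT replicates 1 or 2 (0.0604 and 0.0545) or KO replicate 2 (0.057). Ybx2, the abundant germ cell protein that packages mRNA, rose by 0.53 (SE 0.13, adjusted p = 0.0382 in limma), from 272, 309 and 259 in WT to 408, 371 and 432 in KO. Its call ended without WT replicates 1, 2 or 3 (0.118, 0.0734 and 0.155) or KO replicates 2 or 3 (0.0617 and 0.104).

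None of 12 genes of mTORC1 signalling and none of 13 genes of elongation, termination and hypusination passed in limma, edgeR or DESeq2. In each list 4 genes (33.3% and 30.8%) had an unadjusted limma p under 0.05, where 18.0% of all genes and 26.9% of those with a mean of at least 100 did. The median log2 fold changes of the lists were 0.04 and 0.09. Mtor, the kinase that inactivates the 4E-binding proteins, had 94.3, 113 and 87.7 in WT and 169, 136 and 130 in KO, without overlap (0.56, SE 0.18, adjusted p = 0.102 in limma). Tsc2, which restrains mTORC1, had 149, 126 and 116 in WT and 248, 168 and 160 in KO (0.54, SE 0.18, adjusted p = 0.125 in limma). The termination factor genes Etf1 and Gspt2 had 0.45 and 0.32, with limma adjusted p of 0.126 and 0.12.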

How the data were processed

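Per the labels' protocols, poly(A)-primed cDNA of 5 oocytes came from Smart-Seq2 and the libraries from Nextera XT, with paired 75-base reads. Neither strand nor molecular identifiers are kept. The submitters' processing notes list STAR, cutadapt, FastQC, DESeq2 and DESeq as tools and mm10 and GRCm38 as builds. Tool versions and the gene annotation were not given in the sources used here. Each deposited signal value is a gene's read count over the authors' size factor for that library, and the file header names Partek and DESeq2. Values were whole multiples of 0.899 to 1.11, so whole reads were recovered for 100% of values above 0 (tolerance 0.1 reads).

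Values were compared as log2(value + 1) with limma-trend (limma 3.58.1, R 4.3.3) over the 18762 genes at or above a value of 1 in 3 libraries, without a covariate, with Benjamini-Hochberg adjustment and a threshold of 0.05. A larger added value gave smaller fold changes in low genes, for Eif1a 1.78 with 0.5, 1.73 with 1 and 1.45 with 5 added. For Eif1a, edgeR and DESeq2 gave smaller fold changes (1.56 and 1.54) than limma. The same held for Eif4ebp2 (1.27 in edgeR and 1.27 in DESeq2, against 1.45 in limma). On the recovered reads, edgeR 4.0.16 called 789 of 13078 genes (6.03%) and DESeq2 1.42.0 called 827 of 12082 with an adjusted p (6.84%). Replicates of a group differed by more than sampling noise (5.09 to 16.1 in chi-square per gene, where noise alone gives about 1). Intervals of counting error were not used, since amplified reads are not independent molecules. Printed gene ends are 1 base short of the deposited ends, which lie 1 past the annotated ones. Copies were found by aligning 75-base windows, every 25 bases, of each longest GENCODE M21 transcript with minimap2 2.31-r1302, allowing 1 mismatch.

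The members, gene lists and naming rule were chosen with earlier results of these data known. Named members were those past the threshold, the 10 of smallest p, and in each role the 2 of smallest p and the highest per length. Up to 4 called genes, or the 2 of smallest p, were named from each pathway list. The alternatives were other pseudocounts, filters, scalings and tools, leaving out each library, a replicate block and removal of the GC content and length trend.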

Additional observations from a re-analysis of the deposited data

How the results depend on the processing

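Across the alternatives the direction of each member that passed did not change. The members called higher (1) and lower (3) became 3 and 3 with no filter on low values, 3 and 3 with a filter of 5 CPM, 2 and 3 in edgeR, 4 and 3 in DESeq2, and 0 and 1 with the replicate number as a block. When 1 library was left out they ranged from 0 to 3 higher and from 0 to 2 lower. Over all genes the 351 rises and 264 falls ranged from 39 to 459 and from 30 to 430 when 1 library was left out, and the replicate block gave 246 and 175. The members' median of -0.02 (SD over KO libraries 0.0162) was -0.035 with the 5 CPM filter, -0.036 in edgeR and -0.051 with the GC content and length trend removed, and ranged from -0.056 to -0.0054 when 1 library was left out. Same-numbered WT and KO libraries did not deviate together (correlations -0.14, -0.0674 and -0.0752 over 11309 genes), and no library correlated best with its own number. This check found no sign that the numbers pair samples, but with 3 libraries per group it cannot exclude it. Under the replicate block Eif4g1 passed (adjusted p = 0.00986 in limma), and Eif3j1, Eif3c, Eif3k and Ybx2 did not (0.0749, 0.0704, 0.0875 and 0.0709). Keeping the genes of the 6-library filter when 1 library was left out was added after the data were seen; in that form Eif3j1 passed in 1 of 6 fits and Eif3c and Eif3k in 0, and Zar1 also lost its call without KO replicate 3 (0.057). Eif1a, Eif4ebp2, Eif4ebp3 and Eif5a2 rest on few reads, which limits what could be detected for them.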
